A study of Homo sapiens with 18 samples.

Results

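The genes examined here encode the proteins of the cytoplasmic ribosome. They were taken by symbol from the table of gene counts: protein-coding genes named RPL or RPS with a number and at most one A or X, together with RPLP0, RPLP1, RPLP2 and RPSA. This gave 77 of the 63677 genes of the table, 31 of the small subunit and 46 of the large subunit. The rule uses the symbol and no measured value, and pseudogenes were left out. RNA came from WM989, an established human melanoma cell line, and the 18 libraries made from it fall into 6 groups of 3. Cells had received EPZ5676, an inhibitor of the histone methyltransferase DOT1L, at 4 µM, or DMSO as the control, for 7 days in either case, and all were cultured in the same medium, named Tu2%. Under each treatment the study took the unsorted culture (bulk), cells sorted for high NGFR and EGFR (high) and cells sorted for low NGFR and EGFR (low). The groups in the comparisons are EPZ5676 bulk, DMSO bulk, EPZ5676 high, DMSO high, EPZ5676 low and DMSO low cells, all of one cell line and with no genetic change stated. The labels do not say whether the 3 libraries of a group came from separate cultures, so p-values measure only the spread between libraries.

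Ribosomal proteins bind ribosomal RNA in a fixed order in the nucleolus, nucleus and cytoplasm to form a small subunit, which decodes mRNA, and a large subunit, which joins amino acids. One copy of most of them is needed per ribosome, and their mRNAs are among the most abundant of dividing cells. Those mRNAs typically start with a C at the cap followed by an unbroken run of pyrimidines, the terminal oligopyrimidine (TOP) motif, through which LARP1 and the kinase mTORC1 set how well they are translated and how stable they are. MYC is known to raise the transcription of ribosomal protein genes, of ribosome assembly factors and of RNA polymerase I factors, and unassembled RPL5 and RPL11 stabilise p53 by binding MDM2.

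Before the results, the libraries were set side by side. A library held between 13383741 and 26311674 counts on genes, and reads on no annotated feature made up 12.8% to 28.65% of a library. That share was above 16% in 6 libraries, which were EPZ5676 bulk replicates 1 and 3, EPZ5676 high replicates 1 and 2, EPZ5676 low replicate 1 and DMSO high replicate 3. NGFR, which was used for the sort, had 767, 768 and 645 CPM in EPZ5676 high, 563, 537 and 617 CPM in DMSO high, 3.64, 6.86 and 1.05 CPM in EPZ5676 low and 0.639, 1.61 and 0.764 CPM in DMSO low libraries. CPM stands here and below for a gene's count scaled to the library's total and its TMM factor. The library labelled DMSO bulk replicate 1 stood apart from its group, with 220.3 CPM of NGFR against 12.6 and 9.24 CPM in replicates 2 and 3. DOT1L, the target of EPZ5676, had 184 ± 3.47 CPM in EPZ5676 high and 208 ± 11.01 CPM in DMSO high cells (SD, n = 3 each), a level that does not measure the inhibition of its enzyme. PMEL, a melanosome protein that marks the melanocyte lineage of this line, averaged 10439.9 CPM in EPZ5676 low and 8147 CPM in DMSO low cells.

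All ribosomal protein genes together took a smaller share of the gene counts in the high sort than in the other populations. The share was 2.83%, 2.96% and 2.90% in EPZ5676 high and 2.59%, 2.90% and 2.53% in DMSO high libraries. It was 3.23%, 3.41% and 3.17% in EPZ5676 low libraries, and 3.08%, 3.46% and 3.41% in DMSO low libraries. Under each treatment every high library was thus below every low library, while EPZ5676 high and DMSO high libraries overlapped because DMSO high replicate 2 reached 2.90%. The means were 2.90% ± 0.0614 in EPZ5676 high and 2.68% ± 0.201 in DMSO high cells (SD, n = 3 each), and 3.27% ± 0.126 in EPZ5676 low and 3.32% ± 0.211 in DMSO low cells (SD, n = 3 each). In the unsorted culture the share was 3.09%, 3.43% and 3.23% under EPZ5676 and 3.26%, 3.30% and 3.37% under DMSO, and the groups overlapped. These shares are a description and were given no test. The 1581 genes named as pseudogenes of these genes held a further 0.572% to 0.742%. A share is relative to the rest of the library, so less RNA of these genes per cell, more RNA of other genes and fewer cells of a type that makes much of it cannot be told apart.

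**Figure D1:**
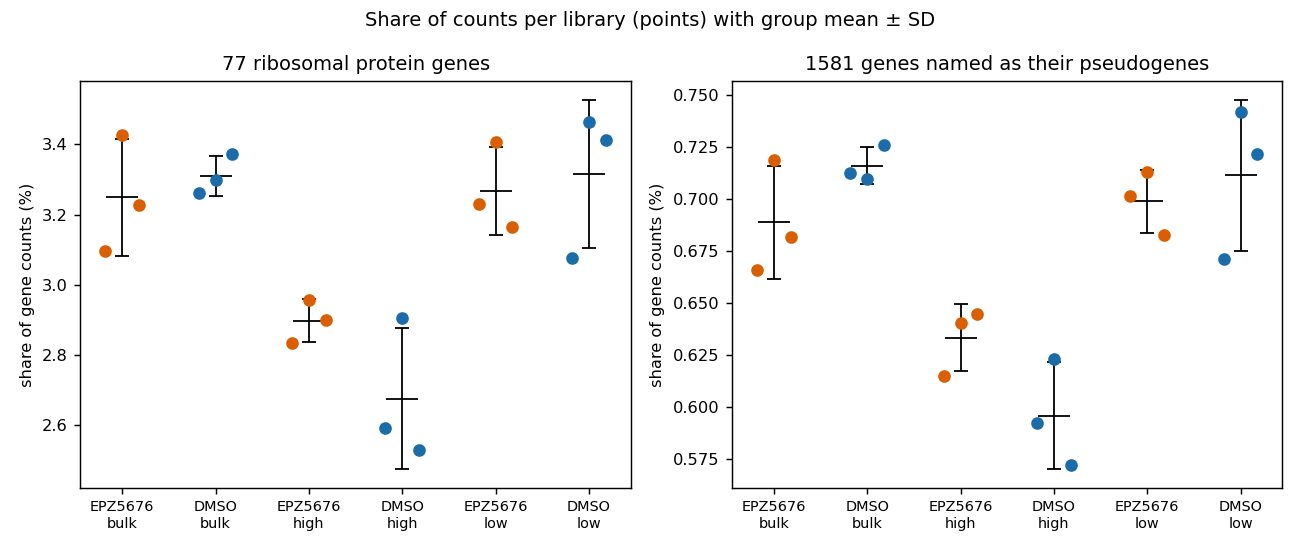
Share of each library's gene counts (%, y axes, which do not start at 0) on the 77 ribosomal protein genes (left) and on the 1581 genes named as their pseudogenes (right), by group on the x axis; points are libraries and bars the mean ± SD. DMSO high libraries sit between 2.53% and 2.90% and EPZ5676 high libraries between 2.83% and 2.96%, below all libraries of the low sort.

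The starts of several genes are shown because they hold the feature that joins this family, and because genes that fell in the high sort and genes that did not pass the test both have it. Each line gives 10 bases before the annotated start and 20 bases from it on, read 5′ to 3′ on the strand of the gene from the RefSeq promoter table of GRCh38.p14. Capitals mark a run of at least 5 pyrimidines that opens with a C at the start base. The first 4 genes (RPL38, RPL12, RPL26 and RPL18) were lower in DMSO high than in DMSO low cells, and the next 4 (RPS16, RPLP0, RPL28 and RPS3A) did not pass the test there. The last line is RPL6, which has no such run in the listed start.
RPL38, chr17:74203668-74203697 on the plus strand: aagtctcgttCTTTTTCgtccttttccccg
RPL12, chr9:127451387-127451416 on the minus strand: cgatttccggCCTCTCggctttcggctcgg
RPL26, chr17:8383174-8383203 on the minus strand: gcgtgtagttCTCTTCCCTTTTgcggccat
RPL18, chr19:48619159-48619188 on the minus strand: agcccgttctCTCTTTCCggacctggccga
RPS16, chr19:39435930-39435959 on the minus strand: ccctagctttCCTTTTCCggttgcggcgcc
RPLP0, chr12:120201092-120201121 on the minus strand: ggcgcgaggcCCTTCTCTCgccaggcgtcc
RPL28, chr19:55385922-55385951 on the plus strand: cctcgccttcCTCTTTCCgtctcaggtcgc
RPS3A, chr4:151099618-151099647 on the plus strand: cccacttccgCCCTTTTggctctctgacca
RPL6, chr12:112411423-112411452 on the minus strand: gtatcctcagtgaatcagaaccagaaaaag

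Of the 77 genes, 62 matched an entry of that table. Only the first entry listed for a symbol was used, so any other listed start of a gene was not looked at. A C stood at the start base in 46 of the 62 (74.19%), against 14.99% of all 27305 promoters of the table. It opened a run of at least 5 pyrimidines in 42 of them (67.74%), against 4.043% of all promoters. RPL39, whose protein lines the exit tunnel, had the longest run, of 19 pyrimidines. The median run from the start base was 7, where genes without a C there were counted as having no run. Within the 300 bases listed per gene, CTTCCG on either strand stood in 39 of 62 (62.9%, against 19.92% of all promoters) and CGCGAGA on either strand in 15 (24.19%, against 3.534%). CACGTG, on either strand, stood in 3 of 62 (4.839%, against 7.435%), GGGCGG on either strand in 34 (54.84%, against 44.59%), AAGATGGCG on either strand in 5 (8.065%, against 1.849%) and TATAAA on the gene strand in 2 (3.226%, against 7.706%). CTTTCC on the gene strand, which overlaps the pyrimidine runs, stood in 25 (40.32%, against 14.03%). A match describes letters only. Of the genes with an entry, 21 of the 35 that fell in DMSO high against DMSO low cells had the run at the start (60%), and 21 of the 27 that did not pass the test (77.8%).

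Levels within the family differed widely. Values per length are uncertain for genes with a long listed transcript, such as RPL37, RPL14, RPL27A, RPL28, RPL13, RPL37A and RPS23. Their listed lengths are 7686, 7072, 4916, 4796, 4498, 3647 and 3437 bases in that order, and the median below includes them. Per kilobase of the longest principal coding transcript in GENCODE 29, the median gene had 239 CPM over the 18 libraries. RPS16, whose tail reaches the transfer RNA in the small subunit, had 3165 CPM per kb and RPL8, a core protein near the peptidyl transferase centre, had 2295 CPM per kb. The lowest of the tested genes was RPS10, at the mRNA entry of the small subunit, which had 3.36 CPM per kb, with 29 to 96 counts in a library. Of the 77 genes, 76 passed the filter on low counts and were tested. These levels depend on how reads of near-identical copies were treated: the deposited table lists 0 reads as not uniquely aligned in every library, and every one of the 77 genes has at least 1 gene named as its pseudogene.

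Reads credited to pseudogenes were a median of 13.8% of the counts of a gene and its copies together. In 31 genes they were under 5%, and in 13 they were 50% or more. RPS28 itself averaged 6.41 CPM over the 18 libraries while its named pseudogenes summed to 191 CPM, and RPL36A averaged 15.4 CPM against 166 CPM on its pseudogenes. RPL17 averaged 7.62 CPM against 107 CPM, and RPS27 34.95 CPM against 311 CPM. RPL17 and RPS10 also overlap annotated read-through genes. The values of these genes are uncertain for that reason, and results are therefore given below with copies summed where that changes a call.

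The first comparison asked how high cells differed from low cells under DMSO, the state without inhibitor. Of the 76 tested genes, 43 were lower and 0 higher in DMSO high cells by edgeR's quasi-likelihood test at a Benjamini-Hochberg adjusted p below 0.05, where 26.7% of all 18121 tested genes were lower and 29.6% higher. In all, 68 of the 76 had a log2 fold change below 0, with a median of -0.25, against 0.03 over all tested genes. In 36 genes every DMSO high library was below every DMSO low library (28.7% of all tested genes), and in 1 gene, RPL10, every high library was above (31.6%). The large subunit had 27 of 46 genes lower with a median log2 fold change of -0.30, and the small subunit 16 of 30 with a median of -0.15. Of the 43 genes, 35 were lower in each fit that left out 1 of the 18 libraries, and the count ran from 37 to 49 in those fits. The count of higher genes was 1 without DMSO bulk replicate 1 or without DMSO low replicate 2.

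**Figure D2:**
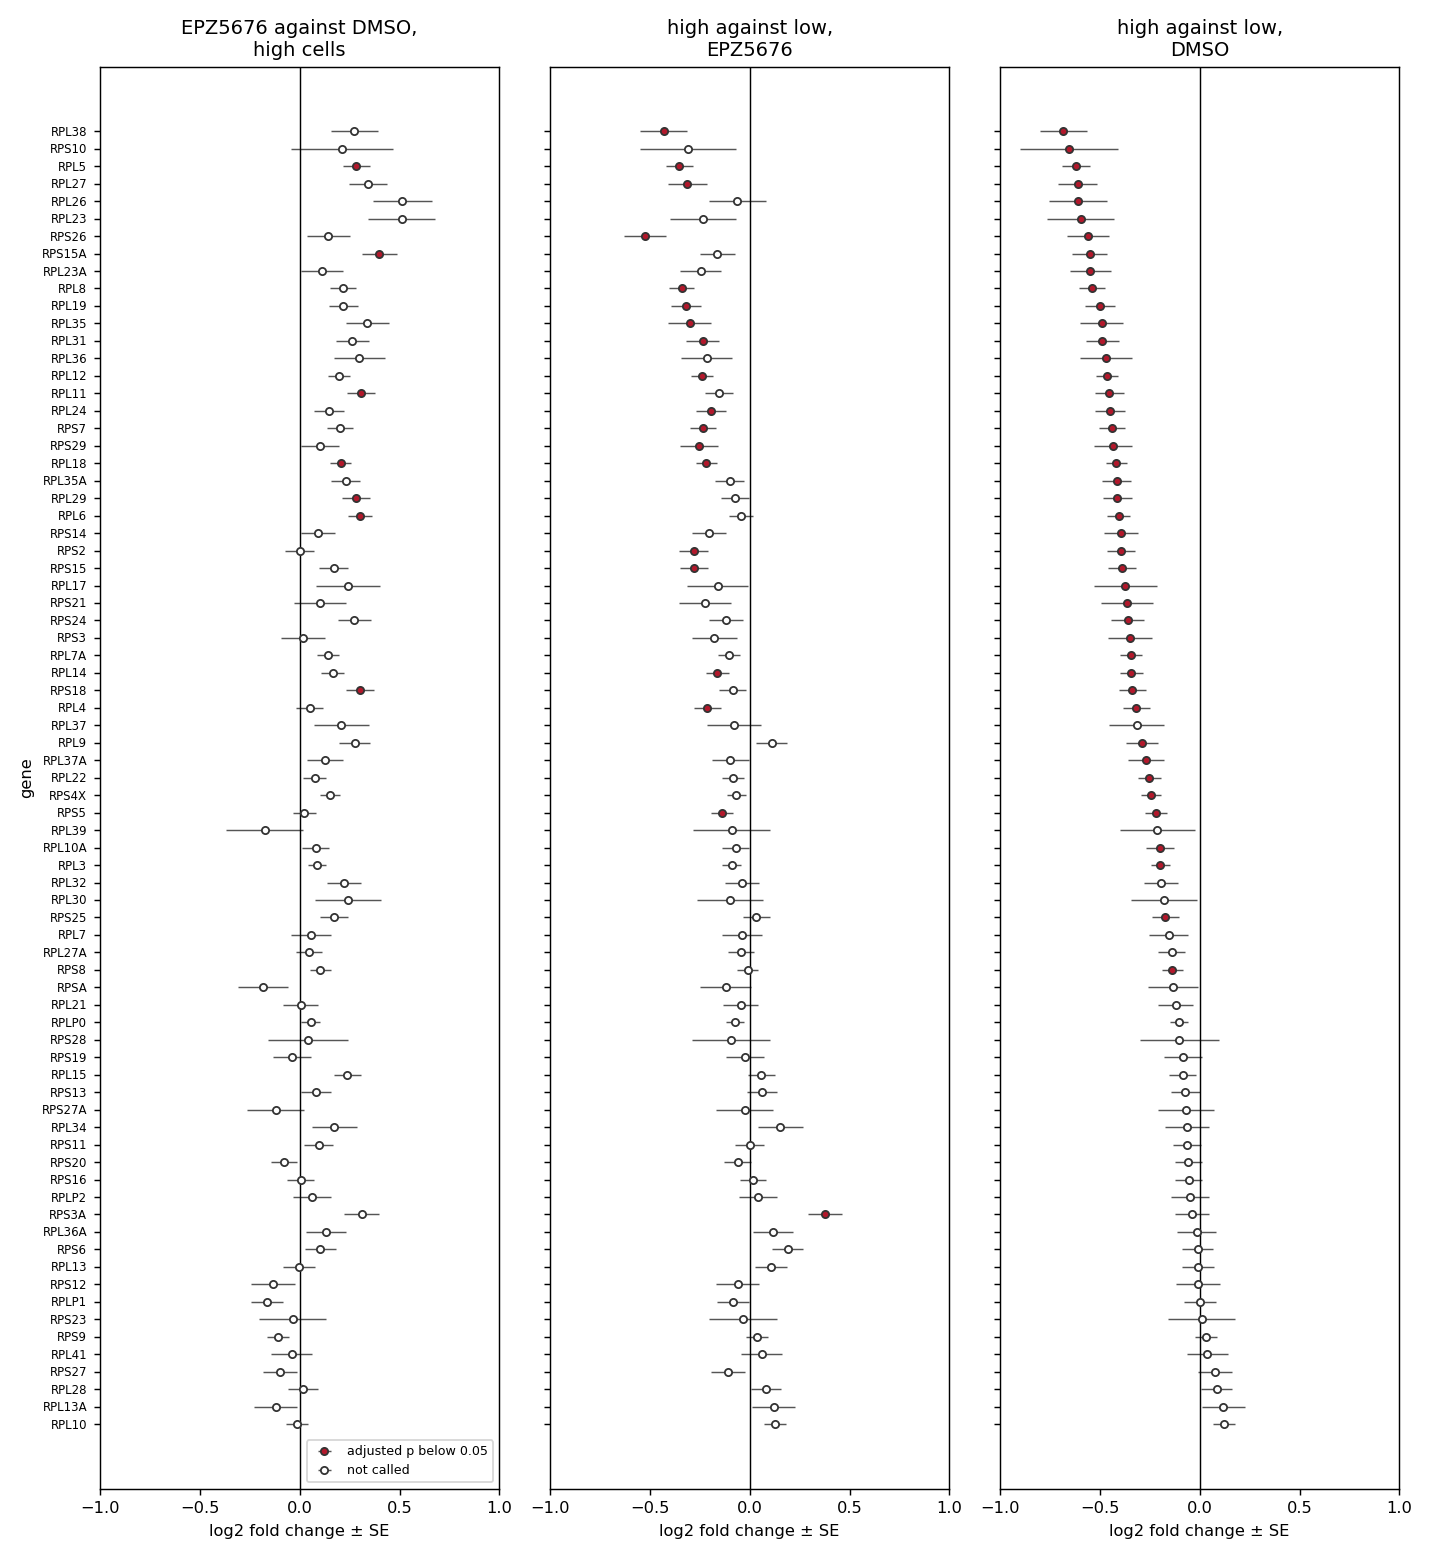
Log2 fold change ± SE (x axis) of 75 tested ribosomal protein genes (y axis, ordered by the change under DMSO) for EPZ5676 against DMSO in high cells (left), high against low cells under EPZ5676 (middle) and high against low cells under DMSO (right); filled points have an adjusted p below 0.05. Under DMSO 43 points are filled, all below 0, under EPZ5676 18 are filled below 0 and 1 above, and on the left 7 are filled above 0; the left and right panels share the DMSO high libraries.

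RPL5 (ENSG00000122406), which enters the large subunit together with RPL11 and 5S ribosomal RNA, had 424, 378 and 437 CPM in DMSO high libraries, against 635, 674 and 592 CPM in DMSO low libraries. Every high library was below every low one, and the log2 fold change was -0.62 ± 0.07, adjusted p = 1.32e-07 by edgeR's quasi-likelihood test. RPL11 (ENSG00000142676), its partner, had 611, 598 and 609 CPM in DMSO high and 756, 915 and 815 CPM in DMSO low libraries. The high libraries of RPL11 lay close together and below the low ones, with a log2 fold change of -0.45 ± 0.07, adjusted p = 1.17e-05 (edgeR). As a ratio of high to low cells this is 0.651 for RPL5 and 0.731 for RPL11, the proteins that carry the 5S ribosomal RNA.

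RPL8 (ENSG00000161016), of the catalytic core, had 1725, 2023 and 1708 CPM in DMSO high and 2410.4, 2796 and 2716 CPM in DMSO low libraries, and its log2 fold change was -0.54 ± 0.06, adjusted p = 4.08e-07 (edgeR). DMSO high replicate 2 was the highest of its group for RPL8 and still below all low libraries. RPL12 (ENSG00000197958), which sits at the base of the stalk that recruits elongation factors, had 197, 202 and 208 CPM in DMSO high and 258, 292 and 287 CPM in DMSO low libraries (log2 fold change -0.46 ± 0.06, adjusted p = 4.13e-07, edgeR). The stalk proteins themselves did not pass the test: RPLP0 had a log2 fold change of -0.10 ± 0.05, adjusted p = 0.0601, RPLP1 of 0.00 ± 0.08, adjusted p = 0.972 and RPLP2 of -0.05 ± 0.10, adjusted p = 0.691 (edgeR). RPLP0 had 787, 744 and 776 CPM in DMSO high and 811, 849.7 and 817 CPM in DMSO low libraries, which do not overlap, though the gap was small.

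RPL38 (ENSG00000172809), required for translation of Hox mRNAs in mouse embryos, had the lowest log2 fold change of the family, -0.68 ± 0.12, adjusted p = 0.000132 (edgeR). It had 225, 222 and 203 CPM in DMSO high and 310.0, 405 and 329 CPM in DMSO low libraries, without overlap, and the low libraries spread more widely. RPL19, which forms a bridge between the subunits, fell by the same test (-0.50 ± 0.07, adjusted p = 7.05e-06), as did RPL18 (-0.42 ± 0.05, adjusted p = 7.03e-07) and RPL6 (-0.41 ± 0.06, adjusted p = 5.07e-06), both proteins of the outer large subunit. RPL26, near the exit tunnel, also fell (-0.61 ± 0.15, adjusted p = 0.00208, edgeR), with 27.6, 42.96 and 29.3 CPM in DMSO high and 46.3, 50.4 and 56.1 CPM in DMSO low libraries. Its copies held 68.5% of the counts of the family, and with them summed the log2 fold change was -0.35, adjusted p = 0.0486. RPL22, which binds viral and cellular RNAs outside the ribosome as well, fell by less (-0.25 ± 0.06, adjusted p = 0.000564, edgeR).

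In the small subunit RPS7 (ENSG00000171863), which binds MDM2, had 92.3, 108 and 101 CPM in DMSO high and 126, 138 and 144 CPM in DMSO low libraries (log2 fold change -0.44 ± 0.06, adjusted p = 5.67e-06, edgeR). High and low libraries of RPS7 were apart. RPS26, at the mRNA exit and mutated in some patients with Diamond-Blackfan anaemia, had 12.8, 14.9 and 13.6 CPM in DMSO high and 19.8, 18.98 and 22.02 CPM in DMSO low libraries (log2 fold change -0.56 ± 0.11, adjusted p = 0.000108, edgeR). RPS4X fell by less (-0.24 ± 0.05, adjusted p = 0.000205, edgeR). RPS10 had the lowest small-subunit value (-0.65 ± 0.25, adjusted p = 0.0274, edgeR), but on 1.88, 1.78 and 2.22 CPM in DMSO high and 3.73, 2.51 and 2.97 CPM in DMSO low libraries, and with its copies summed the log2 fold change was -0.19, adjusted p = 0.258. It is the gene among the 43 that lost its call when copies were summed; the other 42 kept it.

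Other small-subunit genes did not pass the test. RPS6, the substrate of S6 kinase, had 748, 916 and 708 CPM in DMSO high and 710.5, 814 and 863 CPM in DMSO low libraries, which overlap (-0.01 ± 0.08, adjusted p = 0.929, edgeR). RPS19, the gene most often mutated in Diamond-Blackfan anaemia, had 659.8, 839 and 606 CPM in DMSO high and 653, 756 and 824 CPM in DMSO low libraries, which also overlap (-0.08 ± 0.09, adjusted p = 0.469). RPSA, which is also known as a laminin receptor, had a log2 fold change of -0.13 ± 0.13, adjusted p = 0.391, and RPS27A, made as a fusion with ubiquitin, of -0.07 ± 0.14, adjusted p = 0.708 (edgeR). A p above the threshold does not show that these levels were equal.

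The 3 highest log2 fold changes of the family were those of RPL10 (0.12 ± 0.05, adjusted p = 0.0647), RPL13A (0.12 ± 0.11, adjusted p = 0.37) and RPL28 (0.09 ± 0.08, adjusted p = 0.362), none past the edgeR threshold. RPL10, which joins the large subunit late, had 486, 471 and 476 CPM in DMSO high and 425, 459 and 434 CPM in DMSO low libraries, with all high libraries above the low ones. For RPL13A, which also serves in a complex that silences inflammatory mRNAs, 1 library stood above the rest: it had 461, 637 and 462 CPM in DMSO high and 415, 491 and 531 CPM in DMSO low libraries.

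DMSO high replicate 2 differed from its 2 replicates across the family. It had 28 of 76 genes above their own mean over all libraries, against 5 and 3 genes in replicates 1 and 3, and its median deviation was -0.11 on the log2 scale, against -0.21 and -0.23. The library was high for some genes and low for others: RPS3 had 2034 CPM there and 1364 and 1437 CPM in replicates 1 and 3, while RPL23 had 117 CPM there and 203 and 187 CPM in replicates 1 and 3. RPS27A had 214 CPM in replicate 2 and 137 and 131 CPM in the others. RPS3 and RPL23 were chosen here after their values were seen. Without this library 49 genes were lower in DMSO high against DMSO low cells, compared with 43 with it.

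**Figure D3:**
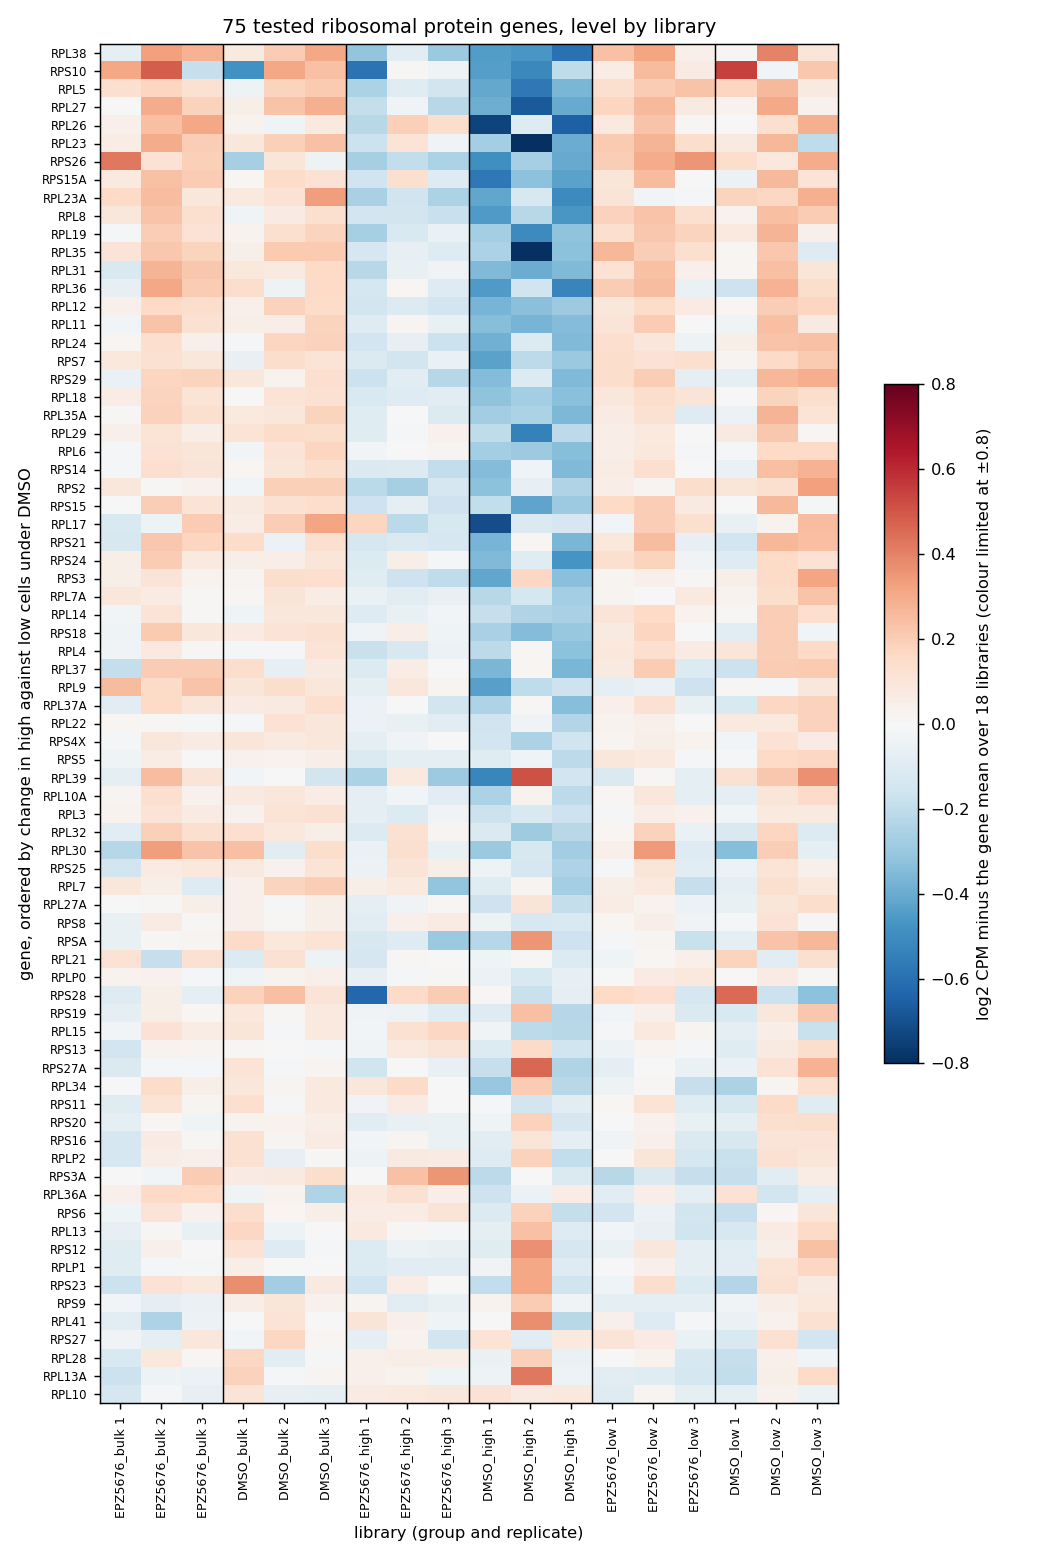
Level of 75 tested ribosomal protein genes (y axis) in each of the 18 libraries (x axis, by group and replicate) as log2 CPM minus the gene's mean over all libraries, with colour limited at ±0.8 and genes ordered by the change in high against low cells under DMSO. The 3 DMSO high columns are the bluest in the upper rows, and within them replicate 2 is red in many of the lower rows.

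The same sort under EPZ5676 gave a smaller set. Of the 76 genes, 18 were lower and 1 higher in EPZ5676 high against EPZ5676 low cells (edgeR, adjusted p below 0.05), where 23.1% of all tested genes were lower and 25.8% higher, so the share of lower genes, 23.7%, was near the background. The median log2 fold change was -0.09, against 0.02 over all tested genes, and 59 of 76 were below 0. In 30 genes every high library was below every low library (28.8% of all tested genes), and in 7 every high library was above (31.5%). All 18 were also among the genes that fell under DMSO, where 43 of the 76 did. The same overlap was not counted over all tested genes. These comparisons share no library, but their tests use a shared estimate of the spread from all libraries. The count of lower genes was 11 without EPZ5676 high replicate 1 and 11 without EPZ5676 low replicate 2. The count of higher genes was 3 without EPZ5676 low replicate 2, and 2 without DMSO bulk replicate 1, DMSO high replicate 2 or 3, or DMSO low replicate 1 or 3. The lower genes numbered 2 without the 6 libraries of a no-feature share above 16%, a fit that leaves 1 EPZ5676 high library, which is then assumed to vary like the other groups; over all 19455 genes tested there, 1869 were lower, against 4190 with all libraries.

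RPS26 had the lowest value, with 14.9, 15.6 and 15.1 CPM in EPZ5676 high and 20.5, 22.05 and 22.9 CPM in EPZ5676 low libraries (log2 fold change -0.52 ± 0.10, adjusted p = 0.000256, edgeR). RPL5 had 473, 526 and 508 CPM in EPZ5676 high and 616, 648 and 659 CPM in EPZ5676 low libraries (-0.35 ± 0.07, adjusted p = 0.000167, edgeR), and RPL8 had 2124, 2138 and 2085 and 2689, 2768 and 2581 CPM in the same order of groups (-0.34 ± 0.06, adjusted p = 0.000142). In each of these 3 genes the groups did not overlap. RPL12 (-0.24 ± 0.06, adjusted p = 0.00104), RPL19 (-0.32 ± 0.07, adjusted p = 0.00115), RPL18 (-0.22 ± 0.05, adjusted p = 0.00147) and RPL38 (-0.43 ± 0.12, adjusted p = 0.00658) also fell (edgeR). RPL11 did not pass the test here (-0.16 ± 0.07, adjusted p = 0.0744), with 720.1, 784 and 743 CPM in EPZ5676 high and 833, 893 and 777 CPM in EPZ5676 low libraries, which overlap.

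RPS3A (ENSG00000145425), of the small-subunit platform, was the one gene that rose in EPZ5676 high against EPZ5676 low cells. It had 49.5, 58.1 and 63.1 CPM in EPZ5676 high and 42.3, 45.6 and 43.5 CPM in EPZ5676 low libraries (log2 fold change 0.38 ± 0.09, adjusted p = 0.000872, edgeR), and 42.8, 49.3 and 45.6 CPM in DMSO high and 43.5, 46.7 and 51.4 CPM in DMSO low libraries (-0.04 ± 0.09, adjusted p = 0.72). The EPZ5676 groups did not overlap and the DMSO groups did. The call held in every fit that left out 1 library, and with its copies, which hold 54.2% of the family's counts, summed in (log2 fold change 0.31, adjusted p = 0.00294). RPS6 (0.19 ± 0.08, adjusted p = 0.0517) and RPL34 (0.15 ± 0.11, adjusted p = 0.274) were the next highest and did not pass the test (edgeR).

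**Figure D4:**
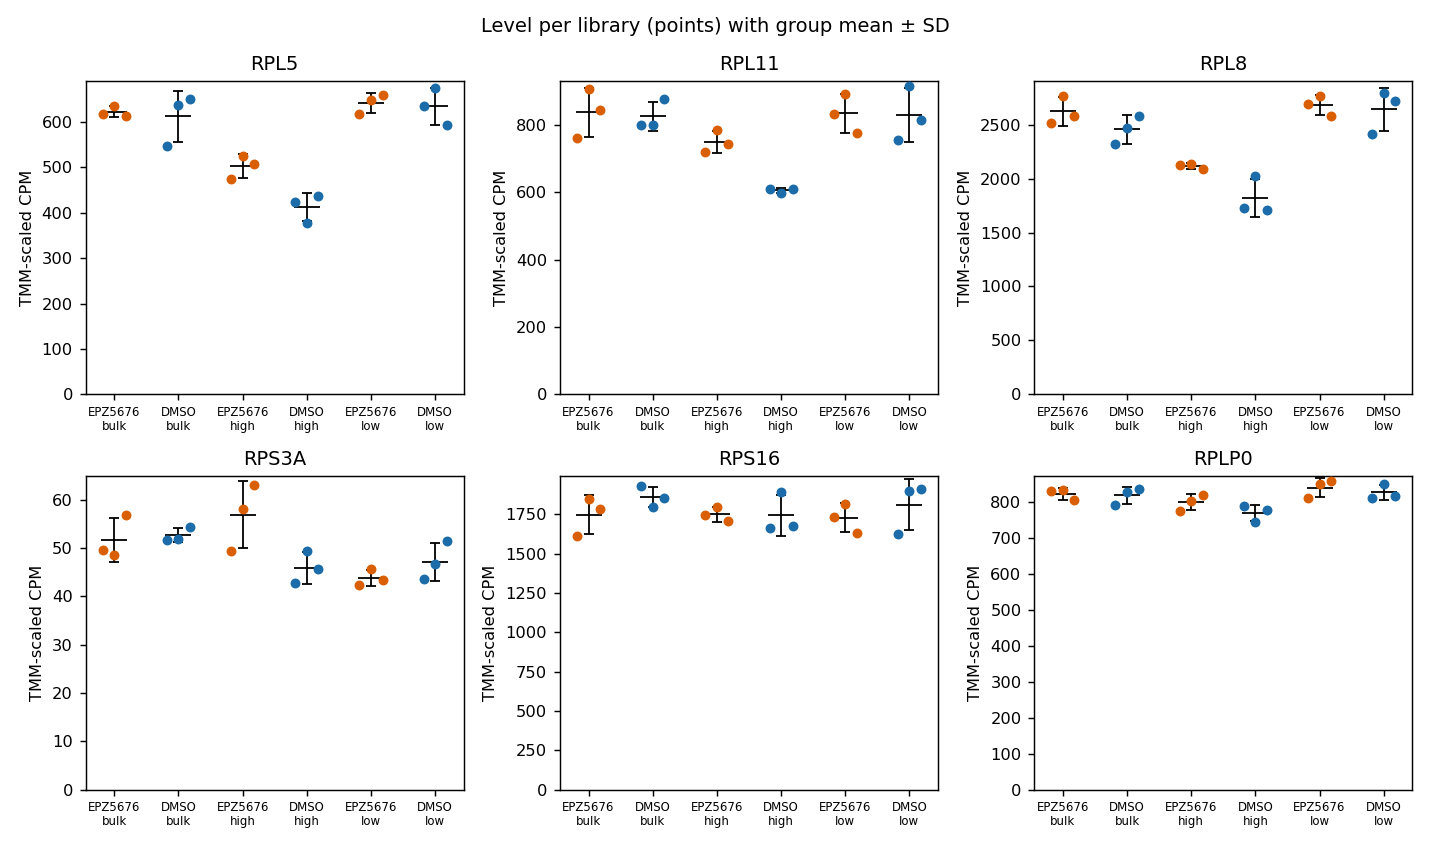
TMM-scaled CPM (y axes, from 0) of RPL5, RPL11, RPL8, RPS3A, RPS16 and RPLP0 in the 6 groups (x axes); points are libraries and bars the mean ± SD (n = 3). RPL5, RPL11 and RPL8 are lowest in DMSO high cells and next lowest in EPZ5676 high cells, while the points of RPS16 overlap between groups and those of RPLP0 lie close together.

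High cells with the inhibitor were then set against high cells without it. Of the 76 genes, 7 were higher and 0 lower in EPZ5676 high against DMSO high cells (edgeR, adjusted p below 0.05), where 1.95% of all tested genes were higher and 1.04% lower. The median log2 fold change was 0.12, against -0.00 over all tested genes, and values ran from -0.18 (RPSA) to 0.51 (RPL26 and RPL23). At an unadjusted p below 0.05 there were 29 genes, all higher (9.19% of all tested genes were higher at that level). In 29 genes every EPZ5676 high library was above every DMSO high library and in 0 every one was below (12.7% and 12.1% of all tested genes).

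RPL6, of the outer large subunit, had the smallest p: it had 171, 174 and 177 CPM in EPZ5676 high and 144, 142 and 137 CPM in DMSO high libraries (log2 fold change 0.30 ± 0.06, adjusted p = 0.00611, edgeR). RPS15A, of the small-subunit body, had 61.2, 74.6 and 63.8 CPM in EPZ5676 high and 46.04, 54.4 and 50.8 CPM in DMSO high libraries (0.40 ± 0.09, adjusted p = 0.0151). RPS18, which contacts the large subunit from the head of the small one, had 349.5, 369.8 and 348 CPM in EPZ5676 high and 298, 280.2 and 288 CPM in DMSO high libraries (0.30 ± 0.07, adjusted p = 0.0189). None of these 3 genes had overlapping groups. RPL11 had 720.1, 784 and 743 CPM in EPZ5676 high and 611, 598 and 609 CPM in DMSO high libraries (0.31 ± 0.07, adjusted p = 0.0195, edgeR), and RPL5 had 473, 526 and 508 and 424, 378 and 437 CPM in the same order of groups (0.28 ± 0.07, adjusted p = 0.0244). RPL18 (0.21 ± 0.05, adjusted p = 0.0343) and RPL29 (0.28 ± 0.07, adjusted p = 0.0357) completed the 7 (edgeR), again without overlap. In all 7 the DMSO high libraries were also lower than the DMSO low libraries by the test above, and since both comparisons use the DMSO high libraries they are not independent.

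The larger log2 fold changes of RPL26 (0.51 ± 0.15, adjusted p = 0.075) and RPL23 (0.51 ± 0.17, adjusted p = 0.137) did not pass the test (edgeR). RPL26 had 39.6, 52.6 and 50.9 CPM in EPZ5676 high and 27.6, 42.96 and 29.3 CPM in DMSO high libraries, which overlap through DMSO high replicate 2. RPL8 (0.22 ± 0.06, adjusted p = 0.0695), RPS3A (0.31 ± 0.09, adjusted p = 0.052) and RPL12 (0.20 ± 0.06, adjusted p = 0.057) lay closer to the threshold and did not pass it either. The lowest values were RPSA (-0.18 ± 0.13, adjusted p = 0.527), RPL39 (-0.17 ± 0.19, adjusted p = 0.725) and RPLP1 (-0.16 ± 0.08, adjusted p = 0.314), and in each of them DMSO high replicate 2 was the highest of its group, with 286 CPM of RPSA against 191 and 199.8 CPM in replicates 1 and 3.

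The 7 calls depended on single libraries. There was 1 call, of RPL6, without EPZ5676 high replicate 2, 3 calls without EPZ5676 high replicate 3, 4 without DMSO high replicate 1, 4 without DMSO high replicate 3 and 16 without DMSO bulk replicate 1. The last fit, which leaves out a library outside this comparison, tested 18784 genes, and over all of them 1099 were higher and 919 lower, against 354 and 189 with the library in. Without the 6 libraries of a no-feature share above 16%, with 1 EPZ5676 high library left, there were 0 calls in the family and 5 higher and 0 lower among all 19455 genes tested, so few genes of any kind were called. With that share as a covariate there were 7 calls. Markers of cell state moved with this comparison. The 8 melanocyte markers summed to 1851 to 2024 CPM in EPZ5676 high and 1235 to 1448 CPM in DMSO high libraries, and 2 of the 8, DCT (1.37 ± 0.25, adjusted p = 0.0128) and S100B (0.38 ± 0.07, adjusted p = 0.0022), rose (edgeR). In the low sort they summed to 14131 to 14308 CPM under EPZ5676 and 11341 to 11813 CPM under DMSO. There 0 of the 8 were called, with log2 fold changes from -0.57 to 0.55. PMEL, whose means in low cells are given above, made up most of these low-sort sums. The 8 fibroblast markers summed to 655 to 806 CPM in EPZ5676 high and 1180.5 to 1510.5 CPM in DMSO high libraries. Their log2 fold changes were below 0 in 5 and above 0 in 3, with a median of -0.22. In 5 of the 8 every EPZ5676 high library was below every DMSO high library, and in 3 above (12.1% and 12.7% of all tested genes). By edgeR 0 of these 8 were called lower and 1, LUM, was higher (0.73 ± 0.14, adjusted p = 0.00828). The no-feature share was 18.9%, 21.2% and 12.8% in EPZ5676 high and 14.5%, 12.9% and 21.4% in DMSO high libraries. The part of these markers in the result was not tested.

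Whether the treatment changed the difference between high and low cells was tested as an interaction. For 0 of the 76 genes did it pass (edgeR, adjusted p below 0.05), where 0.32% of all tested genes did, and DESeq2 called 1. The median interaction was 0.16 on the log2 scale, against -0.00 over all tested genes, with 69 of 76 not below 0. At an unadjusted p below 0.05 there were 23 genes, all above 0 (6.32% of all tested genes were above 0 at that level). RPL6 came closest (0.36 ± 0.08, adjusted p = 0.0682), and RPL26 (0.55 ± 0.20, adjusted p = 0.329), RPS3A (0.42 ± 0.12, adjusted p = 0.166) and RPL9 (0.40 ± 0.11, adjusted p = 0.15) had the highest values. The lowest were RPS27 (-0.18 ± 0.12, adjusted p = 0.611) and RPLP1 (-0.09 ± 0.11, adjusted p = 0.824). Without DMSO bulk replicate 1 there were 8 calls, beside 581 genes above and 491 below 0 among all genes tested, against 37 and 21 with the library in. Without DMSO bulk replicate 3, DMSO high replicate 2 or DMSO low replicate 1 there was 1. The smaller number of lower genes under EPZ5676 than under DMSO is thus not shown to be a difference for any single gene at this threshold.

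In the unsorted culture, 0 of the 76 genes were called between EPZ5676 bulk and DMSO bulk cells by edgeR, DESeq2 or limma-voom, where edgeR called 0.728% of all tested genes. The median log2 fold change was -0.02, and 1 gene had an unadjusted p below 0.05 (12.3% of all tested genes did). It was RPS26, with 24.01, 19.4 and 20.4 CPM in EPZ5676 bulk and 14.9, 19.2 and 17.5 CPM in DMSO bulk libraries, which do not overlap (0.30 ± 0.10, adjusted p = 0.217, edgeR). RPL36A (0.20 ± 0.10, adjusted p = 0.434) and RPS10 (0.18 ± 0.24, adjusted p = 0.821) were next, and RPS28 (-0.22 ± 0.20, adjusted p = 0.707), RPL17 (-0.18 ± 0.15, adjusted p = 0.681) and RPL41 (-0.16 ± 0.10, adjusted p = 0.564) were lowest.

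In the low sort, likewise, 0 of the 76 genes were called between EPZ5676 low and DMSO low cells by edgeR, DESeq2 or limma-voom, and 0 had an unadjusted p below 0.05 (1.04% of all tested genes were called by edgeR and 12% had an unadjusted p below 0.05). The median was -0.03. RPL5 had 641 ± 22.3 CPM in EPZ5676 low and 634 ± 40.8 CPM in DMSO low cells (SD, n = 3 each). RPL11 had 834 ± 57.7 and 829 ± 80.2 CPM in the same order of groups, a difference smaller than the SD of either group. The extremes were RPL39 (-0.30 ± 0.19, adjusted p = 0.565), RPSA (-0.20 ± 0.13, adjusted p = 0.583) and RPL23A (-0.19 ± 0.10, adjusted p = 0.474) at the low end and RPL30 (0.16 ± 0.16, adjusted p = 0.769), RPL23 (0.15 ± 0.17, adjusted p = 0.801) and RPL35 (0.15 ± 0.11, adjusted p = 0.646) at the high end (edgeR).

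RACK1 and FAU encode ribosomal proteins under names outside the symbol rule. RACK1, a scaffold on the head of the small subunit, had 605, 613 and 611 CPM in DMSO high and 767, 834 and 776 CPM in DMSO low libraries (-0.38 ± 0.05, adjusted p = 7.48e-07, edgeR). It had 664, 688 and 676 CPM in EPZ5676 high and 759, 795 and 774 CPM in EPZ5676 low libraries (-0.20 ± 0.05, adjusted p = 0.00134). It fell in both, without overlap. FAU, the precursor of S30, did not pass the test (-0.02 ± 0.18, adjusted p = 0.945 under DMSO), with 125 CPM in DMSO high replicate 2 against 78.95 and 80.7 CPM in replicates 1 and 3.

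Paralogs of the family, of which 7 were tested, went both ways. RPL26L1, a near copy of RPL26, had 12.8, 12.8 and 14.4 CPM in DMSO high and 19.1, 22.9 and 19.3 CPM in DMSO low libraries and fell (-0.61 ± 0.10, adjusted p = 2.23e-05, edgeR), and it fell under EPZ5676 too (-0.57 ± 0.10, adjusted p = 6.51e-05). RPS27L, a p53 target, rose instead, with 53.6, 48.7 and 51.3 CPM in DMSO high and 34.04, 41.9 and 36.5 CPM in DMSO low libraries (0.45 ± 0.09, adjusted p = 0.000231) and a log2 fold change of 0.47 ± 0.09, adjusted p = 0.000167 under EPZ5676. RPL39L, a paralog known from the testis, rose by a smaller amount (0.38 ± 0.11, adjusted p = 0.00617 under DMSO and 0.28 ± 0.11, adjusted p = 0.0444 under EPZ5676). RPL7L1, which acts in ribosome assembly, fell under DMSO (-0.36 ± 0.07, adjusted p = 0.000251) and did not pass the test under EPZ5676 (-0.09 ± 0.07, adjusted p = 0.311). RPL3L, the muscle form of RPL3, fell in both (-1.35 ± 0.53, adjusted p = 0.0331 and -1.64 ± 0.55, adjusted p = 0.0171) at under 1.5 CPM in every library. RPL22L1 (0.13 ± 0.08, adjusted p = 0.164) and RPL36AL (-0.01 ± 0.09, adjusted p = 0.94) did not pass the test under DMSO, and RPL10L, which was not tested, averaged at most 0.0405 CPM in a group.

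Most genes that build the ribosome were lower in the high sort. Of 62 tested genes of ribosomal RNA processing and subunit assembly, 60 were lower and 0 higher in DMSO high against DMSO low cells. Their median log2 fold change was -0.54. Under EPZ5676 50 were lower and 0 higher in the same sort, with a median of -0.34. Over all tested genes, 26.7% were lower and 29.6% higher in the sort under DMSO, and 23.1% lower and 25.8% higher under EPZ5676. NOLC1, a nucleolar phosphoprotein, had 289, 299 and 288 CPM in DMSO high and 615, 642 and 635 CPM in DMSO low libraries (-1.11 ± 0.07, adjusted p = 2.82e-10, edgeR). Its groups were far apart. IMP4 (-1.07 ± 0.07, adjusted p = 3.07e-10), UTP20 (-0.88 ± 0.07, adjusted p = 2.52e-09) and RRP1B (-0.83 ± 0.07, adjusted p = 4.13e-09), which act on the precursor of ribosomal RNA, fell too. In EPZ5676 high against DMSO high cells 7 of the 62 rose and 0 fell, with a median of 0.13. There 1.95% of all tested genes were higher and 1.04% lower. Among the 7 were NOL6 (0.25 ± 0.06, adjusted p = 0.023), NOLC1 (0.29 ± 0.07, adjusted p = 0.0276), SDAD1 (0.29 ± 0.07, adjusted p = 0.0311) and EBNA1BP2 (0.29 ± 0.08, adjusted p = 0.0393, edgeR). In bulk and in low cells, 0 of the 62 were called by edgeR between EPZ5676 and DMSO. Over all tested genes the shares called there were 0.728% and 1.04%. Of 12 tested chaperones and importers of ribosomal proteins, 9 were lower and 0 higher in the sort under DMSO and 8 lower and 1 higher under EPZ5676, with IPO5 (-0.50 ± 0.05, adjusted p = 1.37e-07), PDCD2 (-0.74 ± 0.08, adjusted p = 1.54e-07) and HEATR3 (-0.63 ± 0.07, adjusted p = 3.51e-07) lowest by p under DMSO.

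**Figure D5:**
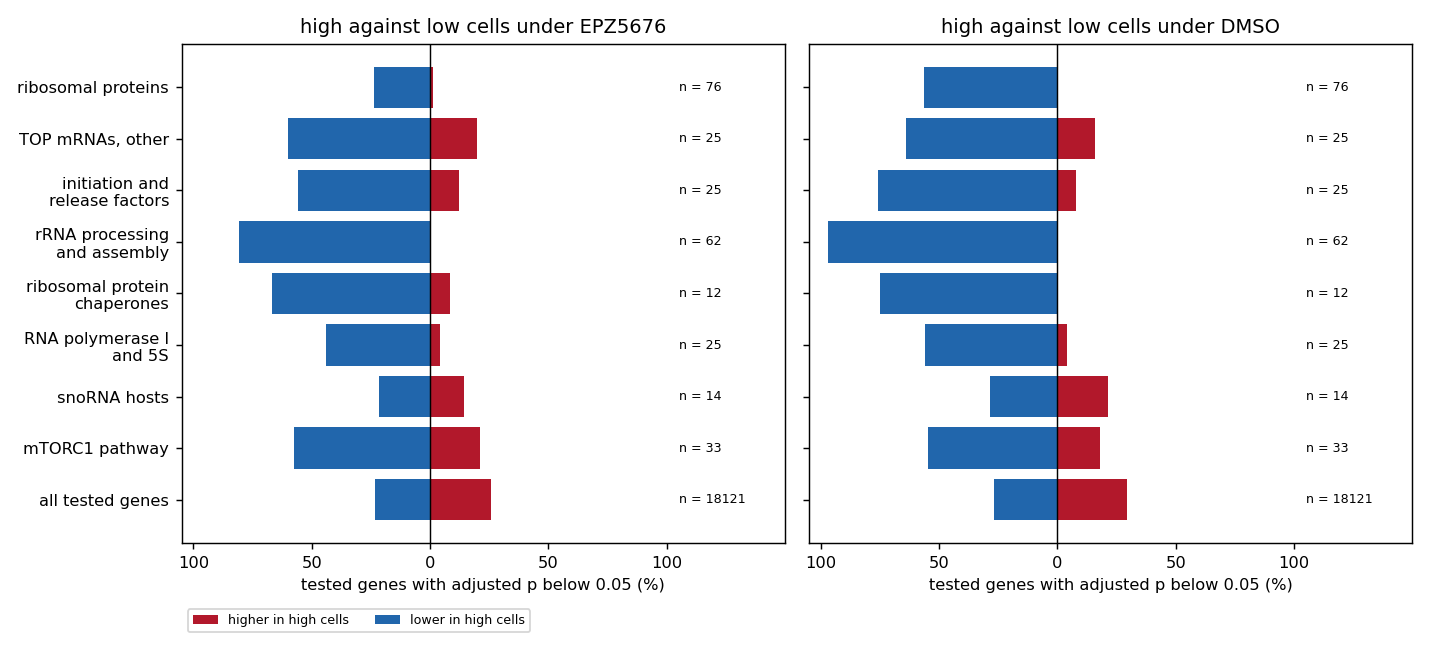
Share of the tested genes of each list (x axis, %) that were higher (right of 0, red) or lower (left of 0, blue) in high against low cells at an adjusted p below 0.05, under EPZ5676 (left panel) and DMSO (right panel); n is the number tested. Ribosomal RNA processing and assembly has the longest blue bars, and all tested genes are given at the bottom for scale.

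In high against low cells, 25 subunits and factors of RNA polymerase I and of 5S transcription were tested. Under DMSO 14 were lower and 1 higher, where 26.7% of all tested genes were lower and 29.6% higher. Under EPZ5676 11 were lower and 1 higher, where 23.1% of all tested genes were lower and 25.8% higher. POLR1B, the second largest subunit of RNA polymerase I, had 51.9, 48.1 and 46.3 CPM in DMSO high and 97.02, 90.2 and 92.2 CPM in DMSO low libraries (-0.93 ± 0.09, adjusted p = 1.32e-08, edgeR). RRN3, which brings that polymerase to its promoter, fell too (log2 fold change -0.66 ± 0.09, adjusted p = 3.33e-06). POLR3G, a subunit of RNA polymerase III, fell most by p (-1.19 ± 0.09, adjusted p = 4.05e-09). None of the 25 were called between EPZ5676 and DMSO in bulk, high or low cells by edgeR. Of all tested genes, 0.728% were called in bulk and 1.04% in low cells, and in high cells 1.95% were higher and 1.04% lower. A count of 0 in 25 is near these shares.

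A list of other TOP mRNAs, mostly of translation factors, and of genes regulated with them had 25 tested genes. In high against low cells, 16 were lower and 4 higher under DMSO, with a median of -0.31, and 15 lower and 5 higher under EPZ5676. For this and the next list, 26.7% of all tested genes were lower and 29.6% higher under DMSO. The shares under EPZ5676 were 23.1% and 25.8%. The list is not limited to mRNAs with a known TOP motif. NPM1, a nucleolar chaperone, fell under DMSO (-0.93 ± 0.10, adjusted p = 3.12e-07), as did EIF3G (-0.47 ± 0.05, adjusted p = 1.45e-07) and EIF4EBP1 (-0.59 ± 0.07, adjusted p = 8.4e-07) (edgeR). VIM, an intermediate filament protein, was among the 5 that rose under EPZ5676 (0.76 ± 0.10, adjusted p = 6.98e-06). Of 25 other initiation and release factors, 19 were lower and 2 higher under DMSO, with a median of -0.40, and 14 lower and 3 higher under EPZ5676. EIF3I had 249, 239 and 245 CPM in DMSO high and 363, 395 and 371 CPM in DMSO low libraries (-0.62 ± 0.05, adjusted p = 5.14e-09), and it was the one of these 25 that rose in EPZ5676 high against DMSO high cells, where it had 287, 292 and 295 CPM in the treated libraries (0.26 ± 0.05, adjusted p = 0.00905).

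Of 33 tested genes of the mTORC1 pathway and its TOP regulators, 18 were lower and 6 higher under DMSO, and 19 lower and 7 higher under EPZ5676. The lower shares were 54.5% and 57.6%, against 26.7% and 23.1% of all tested genes. The higher shares were 18.2% and 21.2%, against 29.6% and 25.8%. MTOR itself fell (-0.71 ± 0.07, adjusted p = 2.17e-08 under DMSO, edgeR), as did LARP1, which binds TOP mRNAs (-0.45 ± 0.05, adjusted p = 5.12e-08), and TBC1D7, a subunit of the inhibitory TSC complex (-1.89 ± 0.13, adjusted p = 2.76e-09). RPTOR, the scaffold of mTORC1, rose (0.49 ± 0.05, adjusted p = 1.24e-07), with 177, 160.4 and 168 CPM in DMSO high and 118, 119.9 and 123 CPM in DMSO low libraries. The members that moved thus include both activators and an inhibitor of the pathway. MYC had 202, 182 and 251 CPM in DMSO high and 628, 694 and 576 CPM in DMSO low libraries (-1.58 ± 0.14, adjusted p = 2.29e-07, edgeR). Under EPZ5676 it had 232, 259 and 254 CPM in high and 596, 571 and 606 CPM in low libraries (-1.25 ± 0.14, adjusted p = 3.54e-06), and between EPZ5676 high and DMSO high cells it did not pass the test (0.23 ± 0.13, adjusted p = 0.438).

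Markers of cell type moved with the sort and are given beside these lists. All 8 tested melanocyte markers were lower in high against low cells under both treatments, with medians of -1.70 under DMSO and -1.35 under EPZ5676. Of all tested genes, 26.7% were lower and 29.6% higher under DMSO, and 23.1% lower and 25.8% higher under EPZ5676. Of 8 tested fibroblast markers 7 were higher and 1, LUM, lower under both treatments. Beside the high-sort sums given above, they summed to 100.002 to 102 CPM in EPZ5676 low and 73.6 to 77.4 CPM in DMSO low libraries, and COL3A1 stayed at or below a group mean of 1.75 CPM. Keratinocyte markers summed to 26.2 to 43.4 CPM over all groups given here, nearly all of it KRT10, with KRT5 and KRT1 at or near 0, while the 7 leukocyte markers summed to at most 2.72 CPM in any library. The 2 tested keratinocyte markers went apart, with log2 fold changes of 0.43 and -3.36 under DMSO and 0.36 and -4.56 under EPZ5676, all called. Of the 6 endothelial markers, which summed to 23.2 to 39.5 CPM, PECAM1 was at 0 in all 18 libraries. Of the 3 endothelial markers tested, 2 were higher and 1 lower under DMSO (-1.24 to 2.20). Under EPZ5676 1 was higher and 1 lower (-0.92 to 1.09). Whether the change of cell state or any of these markers has a part in the lower ribosomal protein levels was not tested.

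The calls were also counted by how many reads fall on copies. Of the 31 genes with under 5% of the family's counts on pseudogenes, 20 were lower in DMSO high against DMSO low cells, with a median log2 fold change of -0.27, and of the 12 tested genes with 50% or more, 4 were lower, with a median of -0.17. With each gene summed with its copies, 77 families could be tested, of which 45 were lower and 0 higher under DMSO and 19 lower and 1 higher under EPZ5676, while 8 were higher in EPZ5676 high against DMSO high cells. The family of RPL17 was lower under DMSO like the gene itself (log2 fold change -0.42, adjusted p = 4.68e-06), and those of RPS28 (-0.23, adjusted p = 0.000257) and RPL7 (-0.22, adjusted p = 0.00253), whose own genes had not passed the test, were lower too (edgeR). Summing also ended 1 call in each of the other comparisons with calls: RPL29 in EPZ5676 high against DMSO high cells (0.36, adjusted p = 0.0737) and RPL24, a large-subunit protein, in high against low cells under EPZ5676 (-0.19 ± 0.07, adjusted p = 0.0344 for the gene and -0.19, adjusted p = 0.0706 for the family, edgeR). Families called where the gene itself was not were, besides, RPL32 under DMSO (-0.19, adjusted p = 0.0395), RPL17 (-0.15, adjusted p = 0.043) and RPS28 (-0.13, adjusted p = 0.0289) under EPZ5676, and RPL12 (0.20, adjusted p = 0.0477) and RPL17 (0.23, adjusted p = 0.0451) in EPZ5676 high against DMSO high cells. RPL24 and the families in this paragraph were chosen after their values were seen.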

How the data were processed

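The authors deposited raw counts per Ensembl gene and library for 18 libraries of WM989 cells. RNA was poly(A)-selected, made into libraries with a NEBNext Ultra kit and sequenced in paired-end mode on a NextSeq 500, per the labels' protocols. Per the submitters' processing notes, the tools behind the counts were STAR and HTSeq and the build was hg19; versions, strand setting and annotation release are not given in the sources used here. Of 63677 genes, 52526 received a symbol from the gene name table or GENCODE 29, and the 5 HTSeq summary lines were left out of the fits. Totals on genes lay between 13383741 and 26311674 per library, and no library repeated another.

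Counts were fitted in R 4.3.3 with edgeR 4.0.16: filterByExpr (18121 genes left), TMM factors, robust quasi-likelihood fit of 6 group means over 18 libraries, Benjamini-Hochberg adjustment over all tested genes within each of 6 comparisons, threshold 0.05. Standard errors came from the quasi-likelihood F statistic. Scripts were tested on simulated counts. Levels are TMM-scaled CPM, and heat map values are their log2 without a prior count. Deviations per library and their correlations used log2 CPM with a prior count of 2. Alternatives were DESeq2 1.42.0, limma-voom (limma 3.58.1), other scalings and filters, a replicate block, a no-feature covariate, left-out libraries and, added after seeing the data, members summed with their pseudogenes. Lists are described by counts and medians only. Named genes are the 6 called members with the smallest p in each direction and the 3 lowest and 3 highest members of a comparison, a fixed set (such as RPL5, RPL11, RPS6 and the stalk proteins), all paralogs, and up to 4 called genes per pathway list with the smallest p. Some genes within this rule are not reported here by name. Members, lists and rules were chosen with earlier results of these data known.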

Additional observations from a re-analysis of the deposited data

How the results depend on the processing

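Direction was kept under each alternative run by every call of a gene that the naming rule above picked for a comparison. Of these 155 calls, 110 also kept their side of the threshold under each. Some calls named above, such as those of RPL29 and RPL24, lie outside this set, and some genes in it are not named. Counts moved more. Genes higher in EPZ5676 high against DMSO high cells, 7 in the edgeR fit, numbered 13 with library size alone, 21 with no filter, 13 with a mean of at least 5 CPM, 18 with DESeq2, 17 with only the groups compared and 0 without the libraries of a no-feature share over 16%. In high against low cells under DMSO, 1 gene was higher (0 in the fit) with a mean of at least 5 CPM and 1 with limma-voom, and library size alone gave a median of -0.32. Under EPZ5676 the genes that were higher, 1 in the fit, numbered 2 with no filter, 3 with a mean of at least 5 CPM, 2 with limma-voom, 6 with only the groups compared and 2 with the no-feature share as a covariate, and the 18 lower genes were 30 with only the groups compared and 2 without the libraries of a no-feature share over 16%. The interaction called 8 genes with no filter, 1 with DESeq2 and 4 with only the groups compared. The cause of these shifts was not tested. Counting pseudogenes in moved the mean share of counts to 3.94% in EPZ5676 bulk, 4.03% in DMSO bulk, 3.53% in EPZ5676 high, 3.27% in DMSO high, 3.97% in EPZ5676 low and 4.03% in DMSO low cells, and as a share of all reads, unassigned ones included, it was 2.33%, 2.60%, 2.18%, 2.05%, 2.47% and 2.60% in the same groups.

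With single libraries left out, the bulk comparison kept 0 higher and 0 lower genes, with medians from -0.06 to 0.02, and the low-sort comparison 0 and 0, with medians from -0.08 to -0.00. EPZ5676 high against DMSO high cells gave 1 to 16 higher and 0 lower genes (medians 0.09 to 0.18). High against low cells gave 0 to 1 higher and 37 to 49 lower genes under DMSO (-0.32 to -0.23), and 1 to 3 higher and 11 to 22 lower under EPZ5676 (-0.12 to -0.06). The interaction gave 0 to 8 higher and 0 lower genes (0.12 to 0.21). A fit with the replicate number as a block called 12 genes higher in EPZ5676 high against DMSO high cells and 2 higher in high against low cells under EPZ5676. Same-numbered libraries did not deviate together: the correlation of their deviations had a median of -0.01 over 45 pairs (-0.34 to 0.30), and 5 of 18 libraries correlated best with their own number. Scaling by library size alone turned the median of all genes in high against low cells to -0.04 under DMSO (0.03 with TMM) and made 46.0% of the called genes higher (52.5% with TMM). Low counts limit RPS10, RPS28, RPL17 and RPL39 most, with lowest counts in a library of 29, 70, 76 and 68. Genes named as their pseudogenes held 69.2%, 96.8%, 93.4% and 89.3% of the counts of these families.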

Other observations

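In high against low cells, 29.6% of all tested genes were higher and 26.7% lower under DMSO, and 25.8% higher and 23.1% lower under EPZ5676. Of 14 tested genes of p53 and nucleolar stress sensing, 5 were higher and 5 lower in high against low cells under DMSO, and 6 higher and 3 lower under EPZ5676, counts from which nothing is read about the list. CDKN1A, a p53 target that stops the cell cycle, had 134, 125 and 129 CPM in DMSO high and 4.03, 2.21 and 3.24 CPM in DMSO low libraries (log2 fold change 5.35 ± 0.65, adjusted p = 1.28e-05, edgeR). CDKN2A, whose ARF product binds MDM2 in the nucleolus, fell in EPZ5676 against DMSO cells of the high sort (-0.41 ± 0.08, adjusted p = 0.00505) and of the low sort (-0.38 ± 0.08, adjusted p = 0.0138, edgeR). In each of these comparisons 1 other gene of the 14 was called, and it was higher: AEN in the high sort and BBC3 in the low sort. Of all tested genes, 1.95% were higher and 1.04% lower in the high sort, and 1.04% were called in the low sort.

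Of the 10 tested genes of the MYC family, 5 were lower and 3 higher in high against low cells under DMSO. There 26.7% of all tested genes were lower and 29.6% higher. MXD4, a repressor that competes with MYC for its partner MAX, rose, with 53.9, 51.8 and 46.97 CPM in DMSO high and 12.03, 12.4 and 13.9 CPM in DMSO low libraries (1.99 ± 0.24, adjusted p = 7.6e-06, edgeR). Under EPZ5676, 5 of the MYC family were lower and 2 higher, where 23.1% of all tested genes were lower and 25.8% higher. Of 14 host genes of small nucleolar RNAs, whose transcripts also start with TOP motifs in part, 4 were lower and 3 higher under DMSO (28.6% and 21.4%) and 3 lower and 2 higher under EPZ5676 (21.4% and 14.3%), shares near or below those over all genes. SNHG29 fell (-0.35 ± 0.05, adjusted p = 5.45e-06 under DMSO) and SNHG32 rose (0.68 ± 0.10, adjusted p = 1.23e-05).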
